A study of Macaca mulatta with 24 samples.

Results

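The 8 genes MTOR, RPTOR, RICTOR, TSC1, TSC2, RHEB, AKT1 and RPS6KB1, which encode core parts of mTOR and AKT signalling, were taken from the deposited table by their gene symbols. All 8 were found among its 17208 symbols, and all 8 had a mean of at least 1 TPM, a level corrected for transcript length and scaled to a fixed total per library, over the 24 animals, so that each entered the tests over 13637 genes. The question was whether these genes differed in the nucleus accumbens core (NAcc), a ventral striatal region of the reward circuit, among unrelated adult male rhesus macaques that chose to drink different amounts of ethanol. The 16 drinkers had 12 months of open access, in daily sessions of 22 h, to 4% (w/v) ethanol and to water, and tissue was collected without imposed abstinence. The 8 Control animals had water only and received a 10% maltose dextrin solution to match calories. Ethanol and the dextrin solution therefore cannot be told apart as the source of a difference between drinkers and Control animals.

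Drinking groups were not assigned but formed by the animals' own intake. The 8 LD* animals were low and binge drinkers combined, all labelled LD. They took 1.58 ± 0.53 g/kg of ethanol per day (SD, range 0.47 to 2.07). The 8 HD* animals took 3.14 ± 0.33 g/kg (range 2.74 to 3.78). HD* was made up of 4 heavy drinkers (HD, 2.74 to 3.09 g/kg) and 4 very heavy drinkers (VHD, 3.09 to 3.78 g/kg). Some LD* animals were older than the rest, so age and LD* status are partly entangled. Cohort 4 held 2 LD* animals, cohort 5 had 3 Control and 4 HD* animals, 2 Control animals came from cohort 7a together with 3 LD* and 4 HD* animals, and 3 Control and 3 LD* animals came from cohort 7b. HD and VHD were balanced, with 2 of each in cohorts 5 and 7a. Each animal gave 1 library from a small bulk dissection, and in bulk tissue fewer cells of a type and less RNA per cell cannot be told apart. Animals are numbered within their category, and the number is only a name.

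MTOR is the kinase at the centre of a growth-control pathway and works in a pair of complexes. In mTORC1 it is joined by the scaffold RPTOR, and in mTORC2 by RICTOR. The TSC1 and TSC2 proteins form a brake that keeps the small GTPase RHEB, the direct activator of mTORC1, in its inactive state. AKT1, a kinase downstream of insulin and growth factor receptors, inhibits TSC2 and is itself phosphorylated by mTORC2, while RPS6KB1 (S6 kinase) is a main mTORC1 substrate that acts on the translation machinery. In neurons the pathway is known for its control of protein synthesis at synapses and for its part in responses to ethanol in rodent striatum. Activity of these kinases is set mostly by phosphorylation, which mRNA levels do not measure.

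The libraries were not alike in make-up. All 10 striatal neuron markers were detected, but their summed level ran from 741 TPM in Control animal 6 of cohort 7b, which also had the highest oligodendrocyte marker score, to 11111 TPM, and the next lowest animal had 2556 TPM. In 7 animals the 4 cortical excitatory neuron markers summed to more than 100 TPM, against a median of 7.36 TPM. A TMM factor (trimmed mean of M-values, the scale of the bulk of genes in a library relative to the others) ran from 0.69 to 1.13, and 4 animals were under 0.9: Control animal 8, LD animal 5, and VHD animals 3 and 4. These 4 held the 4 lowest MTOR levels of the study (19.0 to 24.4 TPM, against 32.3 TPM or more in the other animals) and the 4 lowest RPTOR levels (20.0 to 23.4 TPM, against 25.0 TPM or more). They also held 3 of the 4 lowest values of RICTOR, TSC1, TSC2 and RPS6KB1, but only 1 of the 4 lowest values of RHEB and of AKT1. What set these libraries apart was not tested.

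Over all 24 animals the small GTPase and the upstream kinase were the most abundant of the 8 transcripts and the mTORC2 scaffold the least. Mean levels were 134 ± 15.0 TPM (SD, n = 24) for RHEB, 92.1 ± 5.93 TPM for AKT1 and 72.3 ± 7.46 TPM for TSC2. MTOR followed at 37.0 ± 8.60 TPM, RPTOR at 28.9 ± 4.56 TPM and TSC1 at 22.8 ± 5.13 TPM. The least abundant were RPS6KB1 at 10.1 ± 2.22 TPM and RICTOR at 8.72 ± 2.57 TPM. RHEB's mean stood at percentile 89.4 of the tested genes and that of RICTOR at percentile 29.5. All 7 neighbours in this order differed within animals on the log2(TPM + 1) scale (sign-flip permutation test, two-sided, 100000 resamples, adjusted p from 1.4e-05 to 0.00025). The smallest unadjusted p these resamples can give is 1e-05. The order was taken from the same animals, so these p-values are not independent support for it. The closest pair was RPS6KB1 and RICTOR, with RPS6KB1 higher in 18 of 24 animals. MTOR exceeded RPTOR in 22 of 24 animals, RPTOR exceeded TSC1 in 22 of 24, and the other 4 steps held in 24 of 24.

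The spread between animals also differed from gene to gene. In the values as deposited AKT1 was among the steadiest transcripts, with an SD of 0.090 on the log2 scale (percentile 0.125 of all tested genes). Its highest animal had 1.29 times the level of the lowest. RHEB and TSC2 were steady as well, with log2 SDs of 0.16 each. RICTOR varied most, from 2.46 to 12.9 TPM (5.25 times, log2 SD 0.44, percentile 78.0). MTOR, TSC1 and RPS6KB1 lay between, with log2 SDs of 0.37, 0.36 and 0.32, and RPTOR had 0.23. The steadiness of AKT1 did not hold once libraries were rescaled by TMM. The SE of its log2 fold change in HD* against Control animals was 0.066 as deposited and 0.11 after rescaling. After rescaling that SE was also 0.11 for TSC1 and RPS6KB1, 0.081 for RPTOR and 0.16 for RICTOR.

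**Figure D1:**
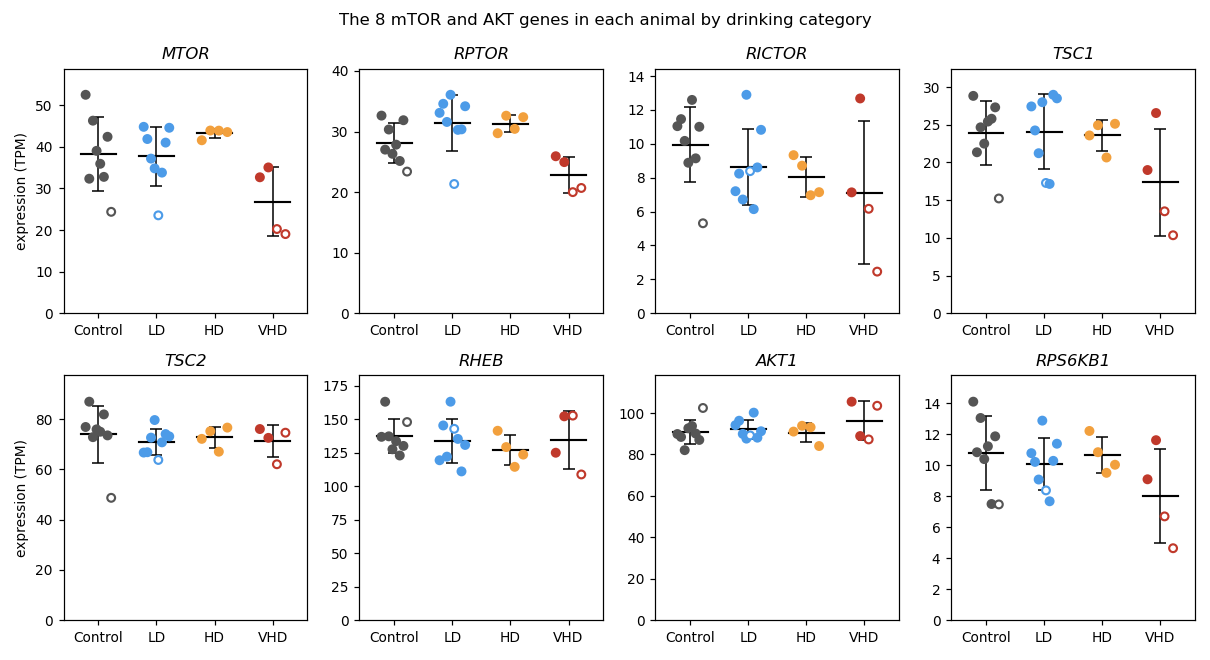
Level of each of the 8 genes (TPM, vertical axis from 0) in each animal by drinking category, with 8 Control, 8 LD, 4 HD and 4 VHD animals. Points are animals, black bars and whiskers are mean ± SD, and open points mark the 4 animals with a TMM factor under 0.9. The 4 HD points lie above the 4 VHD points for MTOR and RPTOR and overlap them for the other 6 genes.

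None of the 8 genes passed limma on log2(TPM + 1) in HD* against Control animals. The study, which tested counts with DESeq2, did report genes that differed in this contrast. It lists MTOR among those lower in HD*. From a pathway analysis of all its differing genes, the study also reports mTOR signalling as upregulated in HD*. Pathway activity was not tested here. Why the results of the gene tests differ was not tested. MTOR ran from 24.4 to 52.5 TPM in Control animals (median 37.5) and from 19.0 to 43.9 TPM in HD* animals (median 38.3). The MTOR groups overlapped almost completely, and the log2 fold change was −0.15 (SE 0.18, adjusted p = 0.760, limma with Benjamini-Hochberg adjustment over 13637 genes). RICTOR had the lowest fitted value: Control animals had 5.31 to 12.6 TPM (median 10.6) and HD* animals 2.46 to 12.7 TPM (median 7.14). Its log2 fold change was −0.41 (SE 0.21, adjusted p = 0.706, limma), and the HD* values still overlapped those of the Control animals. For the brake genes, the log2 fold change was −0.25 (SE 0.17, adjusted p = 0.706) for TSC1 and −0.024 (SE 0.091, adjusted p = 0.923) for TSC2. RPTOR gave −0.062, RHEB −0.074, RPS6KB1 −0.21 and AKT1 0.039, with adjusted p-values between 0.706 and 0.843. Across the transcriptome limma called 0 of 13637 genes in this comparison (0.0%), and 775 genes (5.68%) had an unadjusted p below 0.05, none of them among the 8. Fitted values were below 0 for 7 of the 8 genes, but also for 77.8% of all tested genes. The median of all genes was −0.12, which rescaling by TMM moved to −0.0067. Relative to that median, the 8 genes ran from −0.29 (RICTOR) to 0.16 (AKT1). After TMM rescaling the fitted values of RPTOR, TSC2 and RHEB were above 0, at 0.060, 0.10 and 0.052.

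LD* animals gave the same count. RPTOR had 23.4 to 32.6 TPM in Control animals (median 27.4) and 21.3 to 36.1 TPM in LD* animals (median 32.3). The lowest value in each group was that of its low-factor animal, the groups overlapped, and the log2 fold change was 0.15 (SE 0.12, adjusted p = 1.00 in limma). RICTOR had 6.14 to 12.9 TPM in LD* animals (median 8.31) and a log2 fold change of −0.19 against Control. The other 6 genes lay between −0.078 (RPS6KB1) and 0.021 (AKT1), and every adjusted p of the 8 genes was 1.00. Limma called 0 of 13637 genes (0.0%), with 387 (2.84%) at an unadjusted p below 0.05 and none of those among the 8. This comparison and the previous one share the 8 Control animals.

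HD* against LD* animals gave no call for the 8 genes. TSC1 had the lowest value, with 17.1 to 29.0 TPM in LD* animals (median 25.8), 10.3 to 26.5 TPM in HD* animals (median 22.1) and a log2 fold change of −0.26. RPTOR followed RICTOR (−0.22) at −0.21, MTOR was at −0.14 and RPS6KB1 at −0.13. RHEB was at −0.031, AKT1 at 0.018 and TSC2 at 0.022. Adjusted p-values ran from 0.937 to 0.965 in limma. Here too 0 of 13637 genes were called (0.0%), 147 (1.08%) had an unadjusted p below 0.05, and 73.3% of all fitted values were below 0. The median of all genes was −0.084. Values of the 8 genes overlapped between the groups, as did those of all tested genes but 1, which was higher in HD* (0.00733%).

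**Figure D2:**
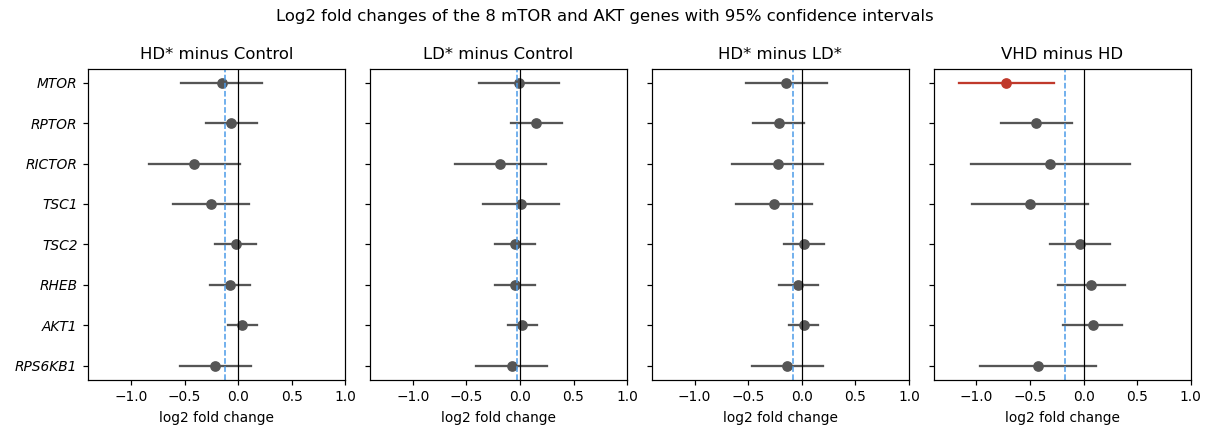
Log2 fold change on the log2(TPM + 1) scale (horizontal axis) of each of the 8 genes in 4 comparisons, with 95% confidence intervals from limma. The dashed blue line is the median of all 13637 genes and red marks an adjusted p below 0.05, reached only by MTOR in VHD minus HD (−0.72).

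Within HD*, MTOR was lower in the very heavy drinkers. The 4 HD animals had 41.6, 43.9, 43.9 and 43.6 TPM and the 4 VHD animals 32.7, 35.1, 20.3 and 19.0 TPM. The lowest HD animal was thus above the highest VHD animal, and the VHD animals formed a higher pair (cohort 5) and a lower pair (cohort 7a). The log2 fold change was −0.72 (SE 0.20, 95% interval −1.16 to −0.28, adjusted p = 0.0348 in limma). Against a background of 1997 called genes of 13637 (14.6%), 1 of the 8 genes (12.5%) was called, a share near that background. In limma no gene reached the adjusted p of 0.001 that the study set for this contrast. The study's own analysis did report genes at that threshold. Of all genes, 32.7% had an unadjusted p below 0.05 in limma.

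RPTOR, the mTORC1 scaffold, also separated the categories. HD animals had 29.7, 32.6, 30.4 and 32.4 TPM, and VHD animals 25.9, 25.0, 20.0 and 20.7 TPM. The values did not overlap, as was also true of 2445 genes lower in VHD (17.9%). RPTOR and MTOR were the 2 of the 8 that were lower in VHD without overlap, and none was higher without overlap, beside 735 of all genes (5.39%). Its log2 fold change of −0.44 (SE 0.15, 95% interval −0.77 to −0.11) did not pass after adjustment (adjusted p = 0.0699, limma).

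The other 6 genes overlapped between HD and VHD. For TSC1 the HD values were 23.6, 24.9, 20.7 and 25.1 TPM and the VHD values 19.0, 26.5, 13.5 and 10.3 TPM, with a log2 fold change of −0.50 (adjusted p = 0.186). RPS6KB1 had 12.2, 10.8, 9.50 and 10.0 TPM in HD and 9.08, 11.6, 6.69 and 4.64 TPM in VHD animals (log2 fold change −0.43, adjusted p = 0.251). RICTOR had 9.33, 8.71, 6.96 and 7.14 TPM in HD and 7.13, 12.7, 6.16 and 2.46 TPM in VHD animals (−0.31, adjusted p = 0.558). In all 3 of these genes VHD animal 4 was the lowest of the 8 HD* animals, and in TSC1 and RICTOR VHD animal 2 was the highest. Leaving out VHD animal 2 brought TSC1 (−0.72, adjusted p = 0.0179) and RPS6KB1 (−0.61, adjusted p = 0.0451) past the threshold, as did array weights (adjusted p = 0.00074 and 0.0047), and with each animal left out TSC1 ran from −0.72 to −0.29 and RPS6KB1 from −0.61 to −0.22. TSC2 (−0.031), RHEB (0.072) and AKT1 (0.084) were close to 0, with 95% intervals of −0.31 to 0.25, −0.24 to 0.39 and −0.19 to 0.36 in limma.

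The median of all genes in VHD minus HD was −0.17, and relative to it MTOR was at −0.55 and RPTOR at −0.27. TMM rescaling moved that median to 0.0058 and left MTOR at −0.52 (adjusted p = 0.0217, limma), RPTOR at −0.24 (adjusted p = 0.169), RHEB at 0.28 and AKT1 at 0.29, and turned TSC2 to 0.17. It also moved the split of all calls from 1556 lower and 441 higher to 1411 lower and 1170 higher. The MTOR call did not hold when either of VHD animals 3 and 4 was left out (log2 fold change −0.61 and −0.58, adjusted p = 0.123 and 0.0566), nor without any 1 of the 4 HD animals (−0.74 to −0.71, adjusted p from 0.0736 to 0.0983). Without both low-factor VHD animals MTOR was at −0.34 (adjusted p = 0.101). With no filter on low values its adjusted p was 0.0703. With cohort as a term both MTOR (adjusted p = 0.0173) and RPTOR (adjusted p = 0.0497) passed.

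The MTOR difference was seen within both cohorts that held HD* animals. In cohort 5 the HD mean was 42.8 TPM (41.6 and 43.9) and the VHD mean 33.9 TPM (32.7 and 35.1). In cohort 7a the HD mean was 43.7 TPM (43.6 and 43.9) and the VHD mean 19.6 TPM (19.0 and 20.3). The gap was wider in cohort 7a, which holds the low-factor VHD animals 3 and 4. The test of that difference between cohorts gave −0.79 on the log2 scale (SE 0.21, adjusted p = 0.247, limma), and it called 0 of 13637 genes (0.0%), with 17.9% at an unadjusted p below 0.05. RPTOR went from 31.2 (HD) to 25.4 TPM (VHD) in cohort 5 and from 31.4 to 20.3 TPM in cohort 7a.

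Set beside the Control animals in a model of all 4 categories, MTOR was at 0.21 in HD (adjusted p = 0.668) and −0.51 in VHD (adjusted p = 0.155, limma). RPTOR was at 0.16 in HD and −0.28 in VHD, TSC1 at −0.00075 and −0.50, RPS6KB1 at 0.0028 and −0.43, and RICTOR at −0.25 and −0.56. None of these passed: limma called 0 of 13637 genes (0.0%) for either category, with 7.77% of genes at an unadjusted p below 0.05 for HD and 26.1% for VHD. Those 5 genes were the ones of the 8 below 0.05 unadjusted for VHD. Both values use the same Control animals.

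Cell type markers moved with this contrast. The striatal neuron marker score, a mean of centred log2 levels over PPP1R1B, DRD1, DRD2, PENK and 6 others, was 0.68 ± 0.12 in HD and −0.39 ± 0.31 in VHD animals (SD, n = 4 each, exact two-sided permutation p = 0.0286, the smallest that 4 against 4 allows). The 10 markers summed to between 8630 and 10209 TPM in HD and between 3197 and 5925 TPM in VHD animals. Of the 10, 9 were lower in every VHD than in every HD animal and none was at 0. The exception was TAC1, at 421 to 741 TPM in HD and 490 to 606 TPM in VHD animals. The endothelial score (4 of 5 markers found) was also lower in every VHD animal (difference −0.32, exact permutation p = 0.0286), with sums of 83.3 to 103 TPM in HD and 55.2 to 105 TPM in VHD animals. Astrocyte and microglia scores differed by 0.57 each toward VHD (exact permutation p = 0.0571). The 7 astrocyte markers summed to 2154 to 3820 TPM in HD and 4899 to 7775 TPM in VHD animals, and the 7 microglia markers to 284 to 377 TPM and 378 to 665 TPM. The oligodendrocyte score differed by −0.15 (exact permutation p = 0.543) and the cortical excitatory neuron score by −1.27 (exact permutation p = 0.371), with sums of 1.42 to 225 TPM in HD and 2.32 to 21.3 TPM in VHD animals. With the striatal and oligodendrocyte scores as covariates the MTOR value was −0.0070 with an SE of 1.42 (limma), against an SE of 0.20 without them. The striatal score did not overlap between HD and VHD animals, and MTOR and tissue make-up cannot be told apart in this contrast.

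Over all 24 animals MTOR and the striatal neuron score rose together in rank (Spearman rho 0.83, adjusted permutation p = 0.00032 over 16 relations), while Pearson's r was 0.55 (adjusted permutation p = 0.105). Control animal 6, with the very low score, had 32.8 TPM of MTOR, and without the 2 animals farthest from the median score r was 0.70. Within cohorts r was 0.84 in cohort 5, 0.86 in cohort 7a and 0.24 in cohort 7b. RPTOR had r = 0.49 and rho = 0.54, and none of the 16 relations passed by Pearson's r. For RPS6KB1 r with the striatal score was 0.45 and for TSC1 0.21, while TSC2 (0.038), RICTOR (0.026), AKT1 (−0.17) and RHEB (−0.25) were nearer 0 or below it. The remaining relations were with the oligodendrocyte score. There AKT1 had r = −0.44 and rho = −0.52 (adjusted permutation p = 0.0516 for rho), with r of −0.41, −0.63 and −0.26 within cohorts 5, 7a and 7b. RICTOR had r = 0.40 and rho = 0.46, and the rest had r from −0.15 (RPTOR) to 0.25 (TSC2). Whether tissue make-up set these levels was not tested.

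**Figure D3:**
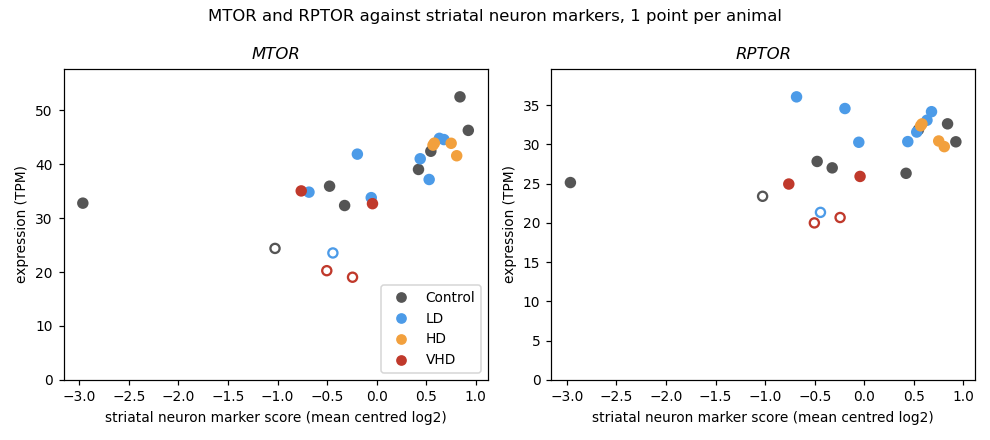
MTOR and RPTOR levels (TPM, vertical axes from 0) against the striatal neuron marker score (mean of centred log2(TPM + 1) over 10 markers) in 24 animals coloured by category. Open points are the 4 animals with a TMM factor under 0.9, and all 4 VHD animals lie at scores below those of the 4 HD animals.

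Daily intake added nothing that passed within the drinking groups. The slope per g/kg of ethanol, fitted over the 16 drinkers with drinking group as a term, was −0.37 for MTOR (SE 0.22, adjusted p = 0.499) and −0.24 for RPTOR (SE 0.15, adjusted p = 0.506, limma). HD animal 2 and VHD animal 3 drank the same 3.09 g/kg, with 43.9 and 20.3 TPM of MTOR. TSC1 (−0.21), RPS6KB1 (−0.16), RICTOR (−0.010), RHEB (−0.019), AKT1 (0.029) and TSC2 (0.073) had flatter slopes. Limma called 0 of 13637 genes (0.0%), with 8.12% at an unadjusted p below 0.05.

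Differences among the 4 cohorts, beyond drinking group, were not called for any of the 8 genes. RPS6KB1 and RICTOR had the lowest adjusted p (0.540 each, limma moderated F-test), RPS6KB1, with a mean of 12.7 TPM in Control animals of cohort 5 and 9.66 and 9.70 TPM in those of cohorts 7a and 7b. For this test 0 of 13637 genes were called (0.0%) and 8.36% had an unadjusted p below 0.05. The HD* difference from Control did not differ detectably between cohorts 5 and 7a either: every adjusted p of the 8 genes was 1.00, 0 genes were called (0.0%), and 2.16% were below 0.05 unadjusted.

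Ratios of 2 genes were also taken within each animal, as differences of log2(TPM + 1) values. The log2 ratio of RPTOR to RICTOR, the scaffolds of mTORC1 and mTORC2, was 1.43 ± 0.26 in Control, 1.77 ± 0.33 in LD* and 1.78 ± 0.49 in HD* animals (SD, n = 8 each). Its difference from Control was 0.34 in LD* (exact permutation p = 0.0434) and 0.35 in HD* (exact permutation p = 0.0976), and neither passed after adjustment over 12 tests (adjusted p = 0.435 for both). Within cohorts the LD* difference was 0.10 in cohort 7a and 0.28 in cohort 7b (exact permutation p = 0.8 and 0.5), and the HD* difference 0.12 in cohort 5 and 0.35 in cohort 7a. Without the 4 low-factor animals the LD* difference was 0.48 and passed (adjusted exact permutation p = 0.0350). The TSC1 to TSC2 ratio was lower in VHD than in HD by 0.47 (−2.05 ± 0.54 against −1.59 ± 0.044, n = 4 each, exact permutation p = 0.143). That difference was −0.12 in cohort 5 and −0.82 in cohort 7a, and ran from −0.68 to −0.24 with each animal left out. RHEB to TSC2 differed by at most 0.10 in any of the 4 comparisons, with exact permutation p-values of 0.571 or more. Within cohorts its LD* difference from Control was −0.42 in cohort 7a and 0.26 in cohort 7b, and its HD* difference was −0.38 in cohort 7a and −0.00071 in cohort 5.

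Several of the 8 genes rose and fell together across animals. MTOR and RPTOR had the highest correlation of the 28 pairs (Pearson r = 0.87, Spearman rho = 0.77, adjusted permutation p = 9.3e-05 for r). Next came TSC1 with RPS6KB1 (r = 0.87), RICTOR with RPS6KB1 (r = 0.86) and MTOR with TSC1 (r = 0.86). MTOR and RPTOR held at r = 0.89, 0.98 and 0.66 within cohorts 5, 7a and 7b, and at 0.78 without the 2 animals farthest from the MTOR median. Without the 4 low-factor animals their r was 0.59, while MTOR with RICTOR went from 0.57 to −0.038 and RPTOR with RICTOR from 0.46 to −0.081, and in cohort 5 those 2 pairs were at 0.095 and −0.11. RICTOR with RHEB passed as well (r = 0.48, adjusted permutation p = 0.0335) and was at 0.63 without the low-factor animals. After TMM rescaling it was at −0.19 and RPTOR with RICTOR at −0.28. AKT1 ran the other way, with r = −0.58 against RICTOR, −0.53 against RPS6KB1 and −0.52 against TSC1. Within cohort 7b these 3 pairs were at 0.085, 0.049 and 0.038, and within cohorts 5 and 7a they were between −0.77 and −0.59. In all, 14 of 28 pairs passed (adjusted permutation p below 0.05), 11 of them positive and 3 negative.

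The pattern depended on how libraries were scaled. After TMM rescaling 13 pairs passed, 7 positive and 6 negative, and the median r of the 28 pairs went from 0.35 to −0.098. MTOR with RPTOR went to 0.62, MTOR with RHEB from −0.17 to −0.76, and AKT1 with RICTOR to −0.81. Taking residuals after drinking group and cohort left 13 pairs, 10 positive and 3 negative. All 8 values of an animal come from the same library and share its scale.

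**Figure D4:**
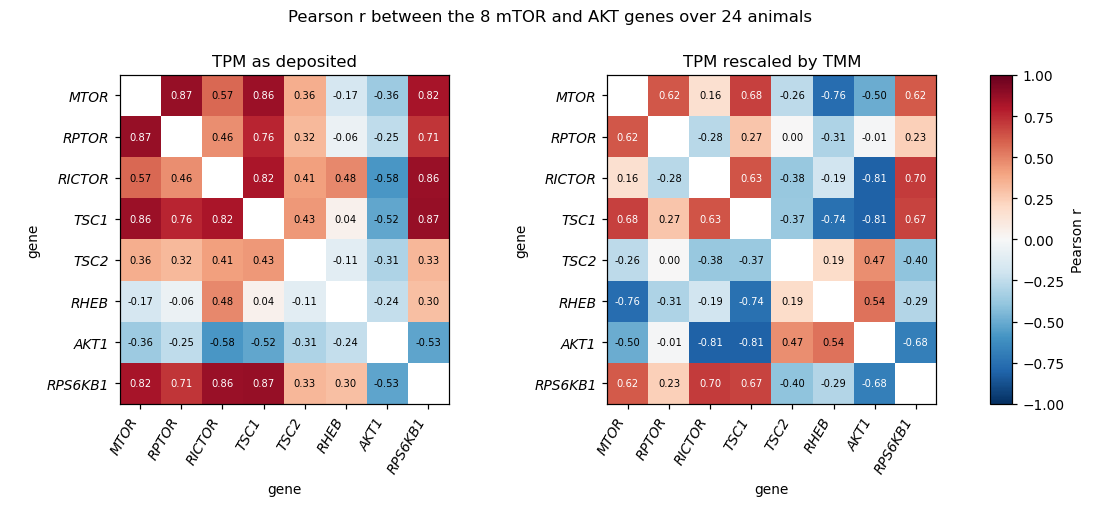
Pearson r for each pair of the 8 genes over 24 animals, on log2(TPM + 1) as deposited (left) and after TMM rescaling (right); red is positive and blue negative, on a scale from −1 to 1. MTOR, RPTOR, RICTOR, TSC1 and RPS6KB1 are positive with each other in the deposited values (r from 0.46 to 0.87), and RPTOR with RICTOR is at −0.28 after rescaling.

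Among the tested genes, those most like MTOR over the 24 animals were BTRC, ATP2A2 and ZMYND8 (r = 0.98 each). RPTOR was most like BRPF3 (0.94) and IP6K1 (0.93), RPS6KB1 most like DENND4A (0.97), FNIP1 and TXLNG (0.96 each), and TSC1 most like RANBP10, CHAMP1 and ZC3H13 (0.96 each). For RICTOR the 3 were VPS13C, ZNF644 and ATM (0.96 each), and for RHEB they were TMEM126B (0.91), CNIH and VBP1 (0.90 each). TSC2 and AKT1 had looser company: EXOC7 (0.87), CCNF (0.73) and FDPS (0.72) for TSC2, and BAP1 (0.72), RBPMS2 (0.71) and IRF1 (0.70) for AKT1. These are descriptions across animals whose libraries differ in scale and make-up.

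The wider pathway was read from a list of 74 further genes, of which 73 were found and tested. In HD* against Control 0 of the 73 passed, and 2 had an unadjusted p below 0.05, beside 5.68% of all genes. DEPTOR, an mTOR inhibitor bound to both complexes, had 4.05 to 12.5 TPM in Control (median 6.11) and 2.85 to 7.61 TPM in HD* animals (median 4.56), a log2 fold change of −0.43 (adjusted p = 0.706, limma). PRR5L, an mTORC2 partner, was at −0.44 (adjusted p = 0.706). In LD* against Control 0 of 73 passed, and DEPTOR alone had an unadjusted p below 0.05 (log2 fold change −0.40), beside 2.84% of all genes and from the same Control animals. HD* against LD* had none at either level.

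In VHD against HD, 13 of the 73 pathway genes passed (17.8%, against 14.6% of all genes), 10 lower (13.7%, against 11.4%) and 3 higher (4.11%, against 3.23%). The median of the 73 was −0.31, beside −0.17 for all genes and −0.37 for the 8. Without the low-factor VHD animals 3 and 4, 2 of the 73 passed (2.74%, against 4.44% of all genes): FOXO1 lower and RPS6 higher. After TMM rescaling 16 passed (21.9%, against 18.9%), 11 lower and 5 higher. Upstream of AKT, 3 of 13 genes fell (23.1%): the growth factor receptors IGF1R and INSR and the PI3-kinase regulatory subunit PIK3R1. IGF1R went from 16.4 to 20.5 TPM in HD to 7.69 to 13.3 TPM in VHD animals, without overlap (log2 fold change −0.87, adjusted p = 0.0206, limma). Among 23 amino acid sensing genes 4 fell (17.4%; RRAGA, SESN3, FNIP2 and DEPDC5) and 2 rose (8.7%; LAMTOR4 and LAMTOR5). DEPDC5, a GATOR1 subunit that restrains mTORC1, had 25.2 to 31.5 TPM in HD and 14.4 to 21.7 TPM in VHD animals (−0.69, adjusted p = 0.0257). LAMTOR4, part of the lysosomal Ragulator scaffold, had 181 to 210 TPM in HD and 249 to 388 TPM in VHD animals (0.66, adjusted p = 0.0206).

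Among 16 targets of the pathway 3 fell (18.8%, against 11.4% of all genes) and 1 rose (6.25%, against 3.23%). FOXO1, a transcription factor that AKT inhibits, had 35.5 to 51.3 TPM in HD and 13.0 to 22.1 TPM in VHD animals (−1.26, adjusted p = 0.00505, limma). FOXO3 and GSK3A fell as well, GSK3A from 220 to 255 TPM down to 148 to 190 TPM (−0.49, adjusted p = 0.0242). GSK3A was not called after TMM rescaling or without the low-factor animals. RPS6, the ribosomal protein that S6 kinase phosphorylates, had 1225 to 1444 TPM in HD and 1928 to 3275 TPM in VHD animals (0.95, adjusted p = 0.00861). Primate genomes hold many processed copies of RPS6, so with uniquely aligned reads its level is uncertain. No gene passed among the 5 mTORC1 partners, 3 mTORC2 partners, 3 AKT relatives and 8 energy sensing genes, nor did TBC1D7 or RHEBL1. After TMM rescaling the energy sensing gene PRKAG1 passed.

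Relatives and partners of the 8 genes can be set beside them. In VHD minus HD, AKT2 was at a log2 fold change of −0.062 and AKT1 at 0.084. RPS6KB2, the second S6 kinase gene, was at 0.45 (adjusted p = 0.118) where RPS6KB1 was at −0.43. Of the complex partners, MLST8 was at −0.17, AKT1S1 at −0.26, DEPTOR at −0.19, MAPKAP1 at −0.11 and TBC1D7 at 0.11. PRR5 was at 0.61 (25.8 to 29.9 TPM in HD, 30.6 to 68.1 TPM in VHD, adjusted p = 0.0717) and PRR5L at −0.026. None of these passed in limma.

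**Figure D5:**
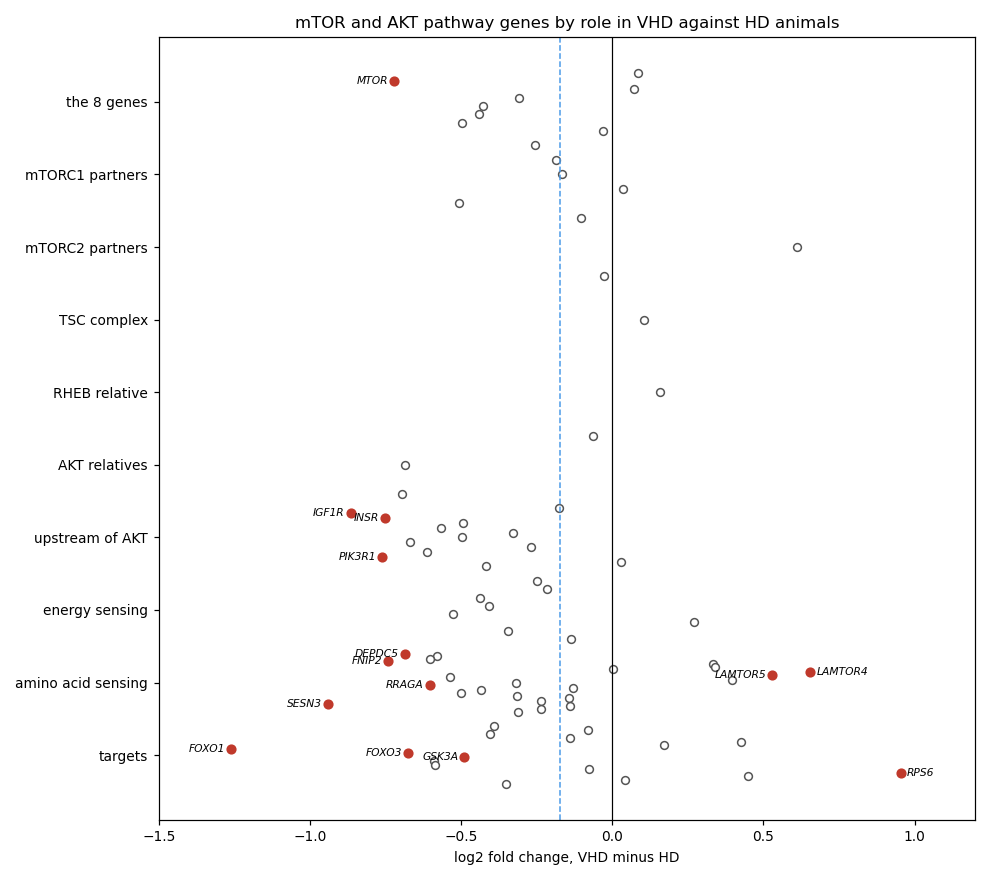
Log2 fold change of VHD minus HD (horizontal axis, log2(TPM + 1) scale) for the 8 genes and the 73 pathway genes, grouped by role. Filled red points with names have an adjusted p below 0.05 in limma, open points do not, and the dashed blue line is the median of all 13637 genes (−0.17).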

How the data were processed

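RNA of the NAcc core of 24 macaques was sequenced once per animal. Per the labels and the study's methods, the authors made polyA-selected TruSeq libraries, sequenced them on a HiSeq 2500, aligned reads to the MacaM assembly with STAR 2.5.2b keeping unique alignments, counted them with HTSeq 0.6.1p1 and tested counts with DESeq2. Strand and read pairing are described differently in the study's methods and in its record. The deposited values are TPM made by the authors, although the table's name speaks of normalized counts: each column sums to between 999998 and 1000000. How TPM were derived is not given in the sources used here. Depth cannot be read from TPM, so no counting error is given and no count model was run. Columns were matched to animals by animal number, and 0 columns were left unmapped. Genes carry symbols only, and no coordinates or sequences are given here.

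Tests used limma 3.58.1 (R 4.3.3) on log2(TPM + 1), with a trend and Benjamini-Hochberg adjustment, over the 13637 genes whose mean reached 1 TPM. Fold changes on this scale understate those of low genes. Control, LD* and HD* were fitted in one model of 24 animals, and VHD against HD in the 8 HD* animals. Permutation tests used Python 3.11.15 and scipy 1.17.1, exact for ratios and marker scores, with 100000 resamples for correlations and the order of levels. Called means an adjusted p below 0.05. P-values of group comparisons set a difference against the spread between animals of self-selected drinking groups. Those for correlations and the order of levels come from resampling over all 24 animals. The scripts were tested on simulated data. Alternatives covered the pseudocount, the filter on low values, TMM rescaling (trimming 30% of log ratios and 5% of levels), array weights, cohort, marker scores and each animal left out. The model of 4 categories, the cohort test of VHD and the fits without animals with a TMM factor under 0.9 were chosen after seeing the data.

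The 8 genes, the pathway list and the marker lists were chosen with earlier results of these data known. Named pathway genes are the paralogues and complex partners of the 8 and, per comparison, those with an unadjusted p below 0.05, at most the 6 with the smallest p. The other called genes were named after their values were seen. Genes alike in pattern are the 3 with the highest Pearson r. Some genes that these rules name are not reported here.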

Additional observations from a re-analysis of the deposited data

Results flagged for a closer look

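Over 40 sets of values (8 genes in Control, LD*, HD*, HD and VHD animals), 3 held an animal far from the rest of its group by Dixon's criterion, which chance meets in about 1 of 20 sets. MTOR in HD animals had its lowest value, 41.6 TPM, apart from the other 3 animals at 43.6 to 43.9 TPM. RPTOR in LD* animals had its lowest value, 21.3 TPM, in LD animal 5, while the other 7 had 30.3 to 36.1 TPM. TSC2 in Control animals had its lowest value, 48.7 TPM, in Control animal 8, while the other 7 had 72.8 to 87.0 TPM. The last 2 are animals with a TMM factor under 0.9.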

How the results depend on the processing

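The groups held different, unrelated animals, so there were no pairs and no paired analysis was run. Among Control, LD* and HD*, 0 of the 8 genes were called in any of 36 settings per comparison, and over the alternatives the smallest adjusted p was 0.254 (RICTOR, HD* minus Control, limma). Where a value changed sign the cause was not tested.

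For VHD minus HD, limma called 1 of the 8 genes: 0 with no filter on low values, 0 with marker scores as covariates, 0 without the animals with a TMM factor under 0.9, 2 with cohort as a covariate, 4 with array weights (MTOR, RPTOR, TSC1 and RPS6KB1), and 0 to 4 with each animal left out. The count of all genes called, 1997, became 7613 with array weights, 0 with marker scores as covariates, 606 without the low-factor animals, and 476 (without VHD animal 3) to 4651 (without VHD animal 2) with each animal left out. At an unadjusted p below 0.05 the marker score fit had 125 of 13637 genes, against 4457 in the main fit. That is fewer than this threshold passes when nothing differs. The intake slope called 0 genes, and 0 to 1 with each animal left out.

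With TMM rescaling the log2 fold changes that turned sign were, for HD* minus Control, RPTOR (0.060), TSC2 (0.10) and RHEB (0.052), MTOR in LD* minus Control (0.026), RHEB in HD* minus LD* (0.058) and TSC2 in VHD minus HD (0.17). Without the low-factor animals they were MTOR (0.0075) and RPTOR (0.028) in HD* minus Control, TSC1 in LD* minus Control (−0.017), MTOR (0.012), RICTOR (0.0082) and RPS6KB1 (0.035) in HD* minus LD*, and RICTOR (0.23) and TSC2 (0.031) in VHD minus HD. With array weights they were RPTOR in HD* minus Control (0.039), MTOR (0.0045), RHEB (0.027) and RPS6KB1 (0.0030) in HD* minus LD*, and AKT1 in VHD minus HD (−0.021). With marker scores they were AKT1 in LD* minus Control (−0.0076) and RPTOR (0.27), TSC1 (0.11), TSC2 (0.53) and RHEB (−0.16) in VHD minus HD.

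With cohort as a covariate they were TSC2 in HD* minus Control (0.0014) and in HD* minus LD* (−0.025), and MTOR (0.045), RICTOR (0.027), TSC2 (0.027), RHEB (0.012), AKT1 (−0.0043) and RPS6KB1 (0.062) in LD* minus Control. In cohorts 7a and 7b only, LD* minus Control turned for MTOR (0.022), TSC2 (0.061), RHEB (0.016), AKT1 (−0.038) and RPS6KB1 (0.041). In cohorts 5 and 7a only, HD* minus Control turned for TSC2 (0.047), and in cohort 7a only, HD* minus LD* turned for TSC2 (−0.056) and AKT1 (−0.020).

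Leaving out each animal gave ranges across 0 for MTOR (−0.095 to 0.080) and TSC1 (−0.078 to 0.070) in LD* minus Control, TSC2 in HD* minus Control (−0.11 to 0.012), AKT1 (−0.0076 to 0.039) and RHEB (−0.067 to 0.011) in HD* minus LD*, and RICTOR (−0.62 to 0.046) and TSC2 (−0.069 to 0.033) in VHD minus HD. MTOR in VHD minus HD stayed below 0 (−0.86 to −0.58). The ratio of RPTOR to RICTOR in HD* minus LD* was −0.065 with a pseudocount of 8, −0.17 without the low-factor animals and −0.11 to 0.13 with each animal left out, and in LD* minus Control it was 0.48 without the low-factor animals. In VHD minus HD it ran from −0.44 to 0.13. RHEB to TSC2 in HD* minus Control was 0.026 without the low-factor animals and −0.11 to 0.048 with each left out, and it ran from −0.043 to 0.10 in LD* minus Control and −0.026 to 0.22 in VHD minus HD. TSC1 to TSC2 in LD* minus Control ran from −0.0023 to 0.12.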
